A study of Mus musculus with 8 samples.

Results

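The potassium channel genes are the protein-coding genes whose mouse symbol begins with Kcn, that is the pore-forming subunits of the potassium channels and the accessory subunits that share the Kcn name. Of the 53465 genes in the deposited table, 94 were protein-coding Kcn genes, and the 51 of these with at least 10 counts in at least 4 of the 8 libraries are described here. All samples came from heart ventricles of mouse embryos taken at E15.5. There were 4 libraries of the overexpressing genotype, called *Nrg1GOF* here, and 4 of wild type (WT). *Nrg1GOF* embryos carried an *Nrg1* transgene at the Rosa26 locus together with a Cre driver, and WT embryos are labelled as WT with no further allele. The genotype tag of the samples spells the driver Nkx5.5-Cre, whereas the title of the series names the cardiac driver Nkx2.5-Cre, which is taken as the driver here. Nkx2.5-Cre is known to act in cardiac progenitors, whose descendants include cells other than ventricular cardiomyocytes. Each replicate is described as 1 ventricle sample. The labels give no strain, litter or sex, and nothing in them shows that libraries of a group came from separate litters, so p values measure the spread between these libraries.

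Potassium channels carry the outward current that returns a cardiomyocyte to its resting potential after each action potential, and they hold it there between beats. Voltage-gated channels of the Kv families carry the transient outward and the delayed rectifier currents, the inward rectifiers of the Kcnj family set the resting potential and link it to acetylcholine and to ATP, and the tandem-pore channels of the Kcnk family pass a background current. Accessory subunits such as the Kcnip and Kcne proteins do not form a pore but change the surface level, the speed and the voltage dependence of the channels they bind.

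*Nrg1*, the gene carried by the transgene, was at 59.7 to 63.7 CPM (counts-per-million of the scaled library) in the *Nrg1GOF* libraries and at 3.07 to 4.47 CPM in those of WT, a difference of 3.94 on the log2 scale (SE 0.10, adjusted p = 8.26e-08 by edgeR), so each library fitted its label. Counts do not tell the transgene from the endogenous gene. Library totals ran from 8038641 counts in *Nrg1GOF* library 4 to 26786039 counts, and 3 counts, taken as the smallest level a library could show, stood for 0.115 to 0.375 CPM. These floors cover counting error only. WT libraries 1 and 2 (r = 0.989 of log2 CPM across genes, which are not independent replicates) and WT libraries 3 and 4 (r = 0.991) were closer to each other than to the other WT libraries (r = 0.980 to 0.981), and the labels name no batch for this split. The transcripts listed as ventricular cardiomyocyte markers were abundant, with 43752 to 44778 CPM in WT and 34972 to 41203 CPM in *Nrg1GOF* summed over 7 genes. This sum does not by itself tell ventricular from atrial cardiomyocytes.

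Potassium channel genes were called in both directions. Of the 50 members that entered the test, 27 had an adjusted p under 0.05 and are described as called (54.0%), against 28.7% of all 15580 tested genes. Higher in *Nrg1GOF* were 16 (32.0%, against 15.9% of all tested genes) and lower were 11 (22.0%, against 12.8%). In 29 members (58.0%) the ranges of the genotypes did not overlap, with 19 higher and 10 lower, as was so in 30.7% of all tested genes. A change of at least 1 on the log2 scale together with a call was reached by 9 members (18.0%), 6 higher and 3 lower, against 4.65% of all tested genes. The median absolute log2 fold change was 0.71 in the members and 0.20 over all tested genes, while the signed median was 0.42 in the members and -0.01 over all tested genes. Levels came from bulk ventricle, in which fewer cells of a type and less RNA per cell cannot be told apart.

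Direction went with level. Among the 25 tested members with a mean of at least 5 CPM over both groups, 8 rose and 11 fell (76.0% called, against 32.1% of all tested genes at that level), with a median log2 fold change of -0.21. Among the 25 tested members under 5 CPM, 8 rose and none fell by the edgeR quasi-likelihood test, with a median of 0.72 (1 fall, *Kcnab1*, at an unadjusted p under 0.05, and 0 called lower by DESeq2 or limma-voom). Over all tested genes at least at 5 CPM, 1865 rose and 1830 fell (median -0.03, 11497 genes), and under 5 CPM 609 rose and 163 fell (median 0.11, 4083 genes), so calls on weakly expressed genes were mostly higher outside the family too. All 11 falls thus lay in members at 5 CPM or more, and the 16 rises were split evenly across that level.

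**Figure D1:**
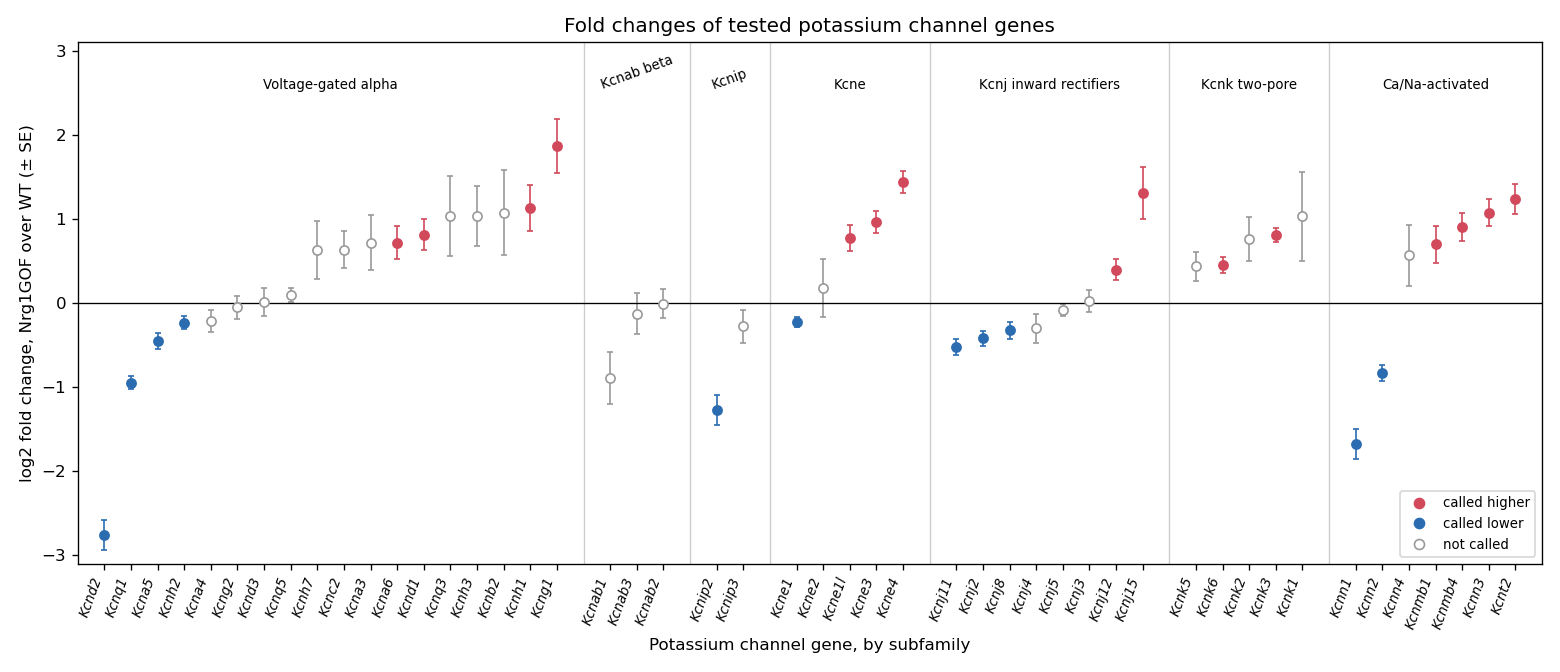
Log2 fold change of 48 tested potassium channel genes (*Nrg1GOF* over WT, y axis) each with its standard error as a bar, grouped by subfamily along the x axis and sorted within it, red for called higher, blue for called lower and open for not called. They run from *Kcnd2* at -2.76 to *Kcng1* at 1.87, and 15 are called higher and 11 lower.

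The promoter sequences of the members that fell furthest in the transient outward complex, *Kcnd2* and *Kcnip2*, and of the accessory subunit that rose furthest, *Kcne4*, are shown because these genes stand for the largest changes of accessory subunits and of the channel that *Kcnip2* serves. RefSeq windows on GRCm38.p6, from 250 bases before to 50 bases after the annotated start, were given for 35 of the 51 members, and the RefSeq start can lie apart from the GENCODE gene bounds given with each gene. In the lines that follow, capitals mark the ETS core CCGGAA or its reverse complement and the E-box CACGTG, and each line gives the 250 bases before the start except the short line of *Kcnd2*, which gives the last 30 bases of its window.
Kcnd2, chr6:21215096-21215345, plus strand: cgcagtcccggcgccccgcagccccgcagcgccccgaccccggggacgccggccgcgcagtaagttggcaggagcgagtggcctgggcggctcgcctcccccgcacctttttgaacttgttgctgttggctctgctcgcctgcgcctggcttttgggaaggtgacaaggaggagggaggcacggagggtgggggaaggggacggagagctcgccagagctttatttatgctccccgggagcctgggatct
Kcnd2, chr6:21215366-21215395, plus strand: ctctgcctttccctTTCCGGgtacaaggcg
Kcnip2, chr19:45816064-45816313, minus strand: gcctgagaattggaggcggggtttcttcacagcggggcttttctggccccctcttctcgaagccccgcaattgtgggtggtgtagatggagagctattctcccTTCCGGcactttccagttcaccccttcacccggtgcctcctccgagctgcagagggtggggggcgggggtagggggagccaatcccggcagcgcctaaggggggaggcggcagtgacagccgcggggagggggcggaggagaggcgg
Kcne4, chr1:78816661-78816910, plus strand: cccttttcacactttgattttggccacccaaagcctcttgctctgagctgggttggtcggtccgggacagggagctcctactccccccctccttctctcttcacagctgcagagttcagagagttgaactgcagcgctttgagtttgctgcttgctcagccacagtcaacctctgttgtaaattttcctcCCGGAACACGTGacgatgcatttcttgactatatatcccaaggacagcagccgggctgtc
The ETS core began 35 bases after the start in *Kcnd2*, 147 bases before it in *Kcnip2* and 60 bases before it in *Kcne4*, where the E-box followed without a gap 54 bases before the start. Both *Kcnd2* and *Kcnip2* thus had the reverse complement of the core, and *Kcne4* had the core as spelled.

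Over the 35 windows and both strands, the ETS core stood in 4 members (*Kcnd2*, *Kcne4*, *Kcnh7* and *Kcnip2*; 11.4%, against 14.9% of all 32851 windows). The E-box CACGTG stood in 5 (*Kcnab1*, *Kcne4*, *Kcnj2*, *Kcnk5* and *Kcnn4*; 14.3% against 7.15%). The Iroquois motif ACANNTGT stood in 3 (*Kcne3*, *Kcnk5* and *Kcnmb1*; 8.57% against 7.38%), the T-box motif AGGTGTGA in none against 1.27% of all windows, and TATAAA in *Kcnj15* alone (2.86% against 13.6%). Median GC content was 57.7% in windows of the 11 members called higher, 66.7% in those of the 7 called lower and 52.7% over all windows. Each member entered with a single window, the one closest to its GENCODE start, whereas the values over all windows took every window given. The members and all windows are therefore not strictly alike sets. A match of such short letters describes the window and is not a binding site.

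Transcripts of the main pore gene of the transient outward current, which repolarises mouse ventricle rapidly, fell to a small part of their WT level. *Kcnd2*, which encodes Kv4.2 (ENSMUSG00000060882, GRCm38 chromosome 6, 21215503 to 21729805, plus strand), was at 11.3, 10.7, 11.6 and 11.1 CPM in WT libraries 1 to 4 and 2.22, 1.67, 1.33 and 1.13 CPM in *Nrg1GOF* libraries 1 to 4. The WT libraries lay within 1 CPM of each other and the highest *Nrg1GOF* library was far below them. This was the strongest fall in the family, 6.80-fold lower (log2 fold change -2.76, SE 0.18, adjusted p = 1.06e-05, edgeR quasi-likelihood test, as for all adjusted p values here), with counts of 9 to 295 per library. *Kcnip2*, which encodes KChIP2, the calcium-binding subunit that brings Kv4 channels to the membrane (ENSMUSG00000025221, GRCm38 chromosome 19, 45791839 to 45816061, minus strand), was at 14.2, 12.3, 18.8 and 17.8 CPM in WT libraries 1 to 4 and 5.85, 6.48, 5.47 and 9.0 CPM in *Nrg1GOF* libraries 1 to 4. Every *Nrg1GOF* library was again below every WT library (log2 fold change -1.28, SE 0.18, adjusted p = 0.000729).

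None of the other genes of this current was called lower in the fit of all libraries. *Kcnd3*, which encodes Kv4.3, was at 3.44, 4.42, 3.84 and 4.71 CPM in WT libraries 1 to 4 and 4.76, 3.43, 4.28 and 4.0 CPM in *Nrg1GOF* libraries 1 to 4, and the groups overlapped throughout (log2 fold change 0.01, SE 0.16, adjusted p = 0.973). *Kcnd1*, the third Kv4 gene, rose from 1.55 ± 0.0928 to 2.73 ± 0.416 CPM (SD, n = 4 each) without overlap (log2 fold change 0.81, SE 0.18, adjusted p = 0.00893), a call that was lost when the close WT pairs were summed (adjusted p = 0.060) or WT libraries 1 and 2 were used alone (adjusted p = 0.0603). *Kcna4*, which encodes the slowly recovering Kv1.4, was at 16, 15.1, 10.6 and 11.6 CPM in WT libraries 1 to 4 and 11.3, 11.5, 11.4 and 11.8 CPM in *Nrg1GOF* libraries 1 to 4. WT libraries 1 and 2 were above all *Nrg1GOF* libraries and WT libraries 3 and 4 lay beside them (log2 fold change -0.21, SE 0.13, adjusted p = 0.271), and against WT libraries 1 and 2 alone *Kcna4* was called (log2 fold change -0.44, adjusted p = 0.0156). *Kcnip3*, another calcium-binding partner of Kv4, had a log2 fold change of -0.28, with an SE of 0.20 and an adjusted p of 0.336. The ratio of *Kcnd3* to *Kcnd2* counts ran from 0.306 to 0.427 in WT and from 2.04 to 3.42 in *Nrg1GOF*, so that *Kcnd2* had the higher count in each WT library and *Kcnd3* in each *Nrg1GOF* library. The ratio of *Kcnip2* to the sum of both Kv4 genes overlapped (0.813 to 1.22 in WT, 0.838 to 1.75 in *Nrg1GOF*).

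Among the delayed rectifiers, the pore gene of the slow component fell further than its accessory gene. *Kcnq1*, the pore of the slow delayed rectifier (ENSMUSG00000009545, GRCm38 chromosome 7, 143106362 to 143427042, plus strand), was at 55.3, 55, 56.4 and 58.5 CPM in WT libraries 1 to 4 and 28.6, 29.2, 25.9 and 34 CPM in *Nrg1GOF* libraries 1 to 4. The highest *Nrg1GOF* library was far below the lowest WT library (log2 fold change -0.95, SE 0.08, adjusted p = 3.8e-05). *Kcne1*, the accessory subunit that slows it, was at 86.1, 86.7, 79.7 and 81 CPM in WT libraries 1 to 4 and 68.3, 72.9, 66.4 and 77.9 CPM in *Nrg1GOF* libraries 1 to 4. The fall was much smaller (log2 fold change -0.23, SE 0.06, adjusted p = 0.0209). It lost its call with the WT pairs summed (log2 fold change -0.23, adjusted p = 0.108), with WT libraries 3 and 4 used alone (-0.17, adjusted p = 0.125) and without *Nrg1GOF* library 1 or WT library 1 or 2 (-0.21 in each, adjusted p = 0.0527 to 0.0551). The count ratio of *Kcne1* to *Kcnq1* accordingly moved from 1.38 to 1.58 in WT to 2.29 to 2.56 in *Nrg1GOF*.

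*Kcnh2*, the ERG pore of the rapid delayed rectifier and the most abundant member by counts, was at 139, 133, 161 and 157 CPM in WT libraries 1 to 4 and 115, 126, 132 and 129 CPM in *Nrg1GOF* libraries 1 to 4. The groups did not overlap but lay close (log2 fold change -0.23, SE 0.08, adjusted p = 0.0423). This call was lost without *Nrg1GOF* library 1, 2 or 4 or WT library 3 or 4 (log2 fold change -0.24 to -0.19, adjusted p = 0.0754 to 0.116), with scaling by library total alone (-0.19, adjusted p = 0.112) and with WT libraries 1 and 2 as the sole controls (-0.12, adjusted p = 0.314). *Kcna5*, which encodes Kv1.5 of the ultrarapid current, was at 18.7, 17.3, 17 and 18.2 CPM in WT libraries 1 to 4 and 13.9, 14.2, 12.5 and 11 CPM in *Nrg1GOF* libraries 1 to 4. It fell without overlap (log2 fold change -0.45, SE 0.09, adjusted p = 0.00487).

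The electrically silent Kv6 subunits, which form channels only together with pore subunits of another Kv family, differed between themselves. *Kcng2* was the member with the highest level per exon length in both genotypes, at 120.1, 105, 107 and 114 CPM in WT libraries 1 to 4 and 85.2, 112, 95.2 and 140.1 CPM in *Nrg1GOF* libraries 1 to 4. *Nrg1GOF* libraries 1 and 3 lay below all WT libraries and library 4 above them, and no change passed the test (log2 fold change -0.05, SE 0.13, adjusted p = 0.815). *Kcng1* (ENSMUSG00000074575, GRCm38 chromosome 2, 168260117 to 168281736, minus strand) was scarce, at 0.955, 0.818, 0.566 and 0.369 CPM in WT libraries 1 to 4 and 2.18, 3.38, 1.97 and 2.38 CPM in *Nrg1GOF* libraries 1 to 4. It had the highest log2 fold change of the family (log2 fold change 1.87, SE 0.32, adjusted p = 0.00201), on 9 to 71 counts per library.

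Of the remaining voltage-gated pore genes, *Kcna6* (Kv1.6) rose from 2.99 ± 0.663 to 4.87 ± 0.76 CPM (SD, n = 4 each; log2 fold change 0.72, SE 0.19, adjusted p = 0.0201) and *Kcnh1* (EAG) from 0.973 ± 0.169 to 2.08 ± 0.658 CPM (SD, n = 4 each; log2 fold change 1.13, SE 0.27, adjusted p = 0.0114). In *Kcnh1*, *Nrg1GOF* library 4 at 1.13 CPM lay within the WT range, and the call was lost with the WT pairs summed (adjusted p = 0.0624) or WT libraries 3 and 4 used alone (adjusted p = 0.0586). The call of *Kcna6* was lost without *Nrg1GOF* library 2 or 3 or WT library 3 or 4 (log2 fold change 0.61 to 0.72, adjusted p = 0.0516 to 0.0583) and after thinning all libraries to equal depth (0.55, adjusted p = 0.191). No call was made on *Kcna3*, *Kcnb2*, *Kcnc2*, *Kcnh3*, *Kcnh7*, *Kcnq3* and *Kcnq5*. Of these, all but *Kcnq5* had means below 5 CPM in both groups, and *Kcnq5* at 17.1 ± 1.44 in WT against 18.3 ± 1.08 CPM in *Nrg1GOF* (SD, n = 4 each) did not change detectably (log2 fold change 0.09, SE 0.08, adjusted p = 0.442). *Kcnc2* was higher in each *Nrg1GOF* library (log2 fold change 0.64, SE 0.22, adjusted p = 0.0518) and was called in 8 of the 20 alternative fits, among them those without *Nrg1GOF* library 1 (0.73, adjusted p = 0.0495) and without WT library 3 (0.76, adjusted p = 0.0418). Without *Nrg1GOF* library 4, *Kcnh3* (1.17, adjusted p = 0.0396) and *Kcnq3* (1.32, adjusted p = 0.0204) were called. Against WT libraries 3 and 4 alone, *Kcnb2* (2.01, adjusted p = 0.0344) and *Kcnh7* (1.3, adjusted p = 0.0176) were called, where the fit of all libraries gave log2 fold changes of 1.07 and 0.63 (adjusted p = 0.147 and 0.216). In all, 5 of the 20 voltage-gated pore genes rose and 4 fell, so that 45.0% were called. Over all tested genes 28.7% were called, with 15.9% higher and 12.8% lower.

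Of the 5 genes of Kcne proteins, small membrane subunits that bind Kv channels and change their gating, 3 rose and *Kcne1* fell. Over all tested genes 15.9% were called higher and 12.8% lower, and 5 genes are too few to set against these shares. *Kcne4*, which dampens *Kcnq1* channels (ENSMUSG00000047330, GRCm38 chromosome 1, 78816758 to 78820028, plus strand), was at 2.68, 2.51, 2.79 and 2.42 CPM in WT libraries 1 to 4 and 6.53, 6.67, 7.48 and 7.63 CPM in *Nrg1GOF* libraries 1 to 4. It rose in every library (log2 fold change 1.44, SE 0.13, adjusted p = 6.47e-05). *Kcne3*, which can hold *Kcnq1* channels open, was at 4.59, 4.2, 4.77 and 3.52 CPM in WT libraries 1 to 4 and 7.62, 8.67, 8.42 and 8.63 CPM in *Nrg1GOF* libraries 1 to 4. It rose without overlap (log2 fold change 0.96, SE 0.13, adjusted p = 0.000529). *Kcne1l*, the X-linked gene also known as *Kcne5*, was at 5.85, 5.51, 4.21 and 4.22 CPM in WT libraries 1 to 4 and 8.53, 7.33, 8.34 and 9.88 CPM in *Nrg1GOF* libraries 1 to 4, and the groups did not overlap (log2 fold change 0.77, SE 0.15, adjusted p = 0.0043). *Kcne2* was at 0.826 ± 0.387 in WT against 0.947 ± 0.126 CPM in *Nrg1GOF* (SD, n = 4 each; log2 fold change 0.18, SE 0.34, adjusted p = 0.745). The summed level per exon length of the 5 Kcne genes was 33.0 ± 1.65 in WT and 35.6 ± 2.26 CPM per kb in *Nrg1GOF* (SD, n = 4 each), and *Kcne1* made up most of it. None of the 3 Kcnab genes, which encode the cytoplasmic beta subunits of Kv1 channels, was called by the edgeR test or by DESeq2 or limma-voom, and 1 of them had an unadjusted p under 0.05. The edgeR test called 28.7% of all tested genes, and 3 genes are too few to set against this share. *Kcnab1* was at 1.61, 1.53, 0.728 and 1.52 CPM in WT libraries 1 to 4 and 0.59, 0.905, 0.727 and 0.625 CPM in *Nrg1GOF* libraries 1 to 4. WT library 3 lay within the range of *Nrg1GOF* (log2 fold change -0.89, SE 0.31, adjusted p = 0.057), and without it *Kcnab1* was called (-1.10, adjusted p = 0.0156).

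Of the inward rectifiers that hold the resting potential, *Kcnj2* fell and *Kcnj12* rose. *Kcnj2*, which encodes Kir2.1, the main subunit of the inward rectifier current of ventricle, was at 36.1, 38.5, 43.9 and 47.7 CPM in WT libraries 1 to 4 and 32.3, 29.1, 31.6 and 31.4 CPM in *Nrg1GOF* libraries 1 to 4. The groups did not overlap (log2 fold change -0.42, SE 0.09, adjusted p = 0.00634). *Kcnj12*, which encodes its partner Kir2.2, rose to a level that was still lower, at 10.5, 10.4, 10.8 and 11.2 CPM in WT libraries 1 to 4 and 13.2, 13.6, 12.2 and 18.3 CPM in *Nrg1GOF* libraries 1 to 4. *Nrg1GOF* library 4 was well above the other *Nrg1GOF* libraries (log2 fold change 0.40, SE 0.12, adjusted p = 0.0346). This call was lost without *Nrg1GOF* library 2 or any WT library (log2 fold change 0.38 to 0.42, adjusted p = 0.0581 to 0.0737). *Kcnj4*, which encodes Kir2.3, overlapped, at 6.04 ± 0.88 in WT against 4.97 ± 0.974 CPM in *Nrg1GOF* (SD, n = 4 each; log2 fold change -0.30, SE 0.17, adjusted p = 0.22). The count ratio of *Kcnj2* to *Kcnj12* went from 3.44 to 4.24 in WT to 1.72 to 2.58 in *Nrg1GOF*.

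Both pore genes of the ATP-sensitive channel were lower. *Kcnj11*, which encodes Kir6.2, was at 46.5, 45.6, 50.9 and 54.2 CPM in WT libraries 1 to 4 and 33.4, 37.9, 36.8 and 28.1 CPM in *Nrg1GOF* libraries 1 to 4. It fell in every library (log2 fold change -0.52, SE 0.09, adjusted p = 0.00261). *Kcnj8*, which encodes the Kir6.1 pore typical of vessels, was at 22.2, 22.4, 22 and 24.7 CPM in WT libraries 1 to 4 and 16.9, 18.6, 15.9 and 22.4 CPM in *Nrg1GOF* libraries 1 to 4. *Nrg1GOF* library 4 reached the WT range (log2 fold change -0.33, SE 0.10, adjusted p = 0.0391). This was the least stable call, lost without each of the libraries except *Nrg1GOF* library 4 (log2 fold change -0.34 to -0.26, adjusted p = 0.0624 to 0.105) and with scaling by library total alone (-0.28, adjusted p = 0.0583). Each of these pore genes lies next to the gene of a sulphonylurea receptor, the regulatory subunit of the same channel, on the same strand, with *Kcnj11* 3.8 kb from *Abcc8* on chromosome 7 and *Kcnj8* 16.2 kb from *Abcc9* on chromosome 6. *Abcc8* fell from 24.0 ± 5.74 to 13.6 ± 2.67 CPM (SD, n = 4 each; log2 fold change -0.80, SE 0.18, adjusted p = 0.00909). *Abcc9*, the more abundant receptor, was at 262 ± 26.2 and 229 ± 20.6 CPM (log2 fold change -0.19, SE 0.09, adjusted p = 0.126). Neither the ratio of *Kcnj11* to *Kcnj8* (adjusted exact permutation p = 0.419) nor that of *Abcc8* to *Abcc9* (adjusted exact permutation p = 0.137) passed the test.

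The acetylcholine-gated channel, which slows the heart in response to the vagus nerve, showed no call. *Kcnj5* (GIRK4) was at 96.3, 98.5, 86.8 and 84.6 CPM in WT libraries 1 to 4 and 90.1, 90.1, 88.8 and 75.6 CPM in *Nrg1GOF* libraries 1 to 4 (log2 fold change -0.08, SE 0.08, adjusted p = 0.453), and *Kcnj3* (GIRK1) was at 19.1, 21.2, 16.3 and 17.6 CPM in WT libraries 1 to 4 and 20.6, 18, 21.9 and 14 CPM in *Nrg1GOF* libraries 1 to 4 (log2 fold change 0.03, SE 0.13, adjusted p = 0.914). The groups overlapped in both, and their ratio was 0.188 to 0.216 in WT and 0.186 to 0.246 in *Nrg1GOF*. *Kcnj15*, which encodes Kir4.2, was the inward rectifier that rose furthest, at 3.59, 5.24, 1.5 and 2.75 CPM in WT libraries 1 to 4 and 6.85, 8.57, 9.02 and 7.5 CPM in *Nrg1GOF* libraries 1 to 4. WT libraries ranged widely and all lay below *Nrg1GOF* (log2 fold change 1.31, SE 0.31, adjusted p = 0.0102). *Kcnj14* passed the membership rule but not the filter of the test, at 0.417 ± 0.106 in WT against 0.48 ± 0.358 CPM in *Nrg1GOF* (SD, n = 4 each), with no counts in *Nrg1GOF* library 4. Summed per exon length, the 9 Kcnj genes stood at 60.5 ± 1.26 in WT and 53.1 ± 1.02 CPM per kb in *Nrg1GOF* (SD, n = 4 each), and every *Nrg1GOF* library was below every WT library.

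All 5 genes of the Kcnk background channels were higher in every *Nrg1GOF* library than in any WT library. Over all tested genes, the groups did not overlap in 30.7%. Of the 5 genes, 2 were called (40.0%, against 28.7% of all tested genes), which with so few genes is near that share. *Kcnk3*, which encodes the acid-sensitive TASK-1 (ENSMUSG00000049265, GRCm38 chromosome 5, 30588170 to 30625271, plus strand), was at 68.6, 64.3, 73.2 and 62.3 CPM in WT libraries 1 to 4 and 107, 124, 108 and 133 CPM in *Nrg1GOF* libraries 1 to 4. It was the most abundant potassium channel gene that rose (log2 fold change 0.81, SE 0.08, adjusted p = 0.000129), with 1061 or more counts in each library. *Kcnk6*, which encodes TWIK-2, was at 9.63, 11.9, 11 and 11.5 CPM in WT libraries 1 to 4 and 13.9, 14.1, 15.9 and 16.4 CPM in *Nrg1GOF* libraries 1 to 4. It also rose without overlap (log2 fold change 0.45, SE 0.10, adjusted p = 0.0069). *Kcnk5*, *Kcnk2* and *Kcnk1* were not called, with log2 fold changes of 0.44, 0.76 and 1.03 (adjusted p = 0.0884, 0.0535 and 0.181), and *Kcnk1* rested on 2 to 16 counts. With all libraries kept, *Kcnk2* was called by limma-voom (0.77, adjusted p = 0.0463) and by edgeR with scaling by library total (0.81, adjusted p = 0.0437), and also without *Nrg1GOF* library 4 (0.84, adjusted p = 0.0496). The summed level of the 5 genes went from 20.5 ± 1.25 to 34.8 ± 3.54 CPM per kb (SD, n = 4 each), of which *Kcnk3* alone made up 16.9 and 29.6 CPM per kb.

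The small-conductance calcium-activated channels (SK), which are opened by calcium bound to calmodulin, changed in opposite directions. *Kcnn1* (SK1; ENSMUSG00000002908, GRCm38 chromosome 8, 70842049 to 70863258, minus strand) was at 9.86, 10.3, 13.4 and 16.1 CPM in WT libraries 1 to 4 and 3.49, 3.81, 3.68 and 4.88 CPM in *Nrg1GOF* libraries 1 to 4. WT libraries 3 and 4 were above WT libraries 1 and 2, and all 4 were well above *Nrg1GOF* (log2 fold change -1.68, SE 0.18, adjusted p = 0.000171). *Kcnn2* (SK2) was at 19.3, 19.1, 23.1 and 21.4 CPM in WT libraries 1 to 4 and 11.3, 12.5, 12.1 and 10.5 CPM in *Nrg1GOF* libraries 1 to 4, with tight groups that did not overlap (log2 fold change -0.83, SE 0.09, adjusted p = 0.000165). *Kcnn3* (SK3), in contrast, was at 17.7, 17.6, 12 and 10.5 CPM in WT libraries 1 to 4 and 31.6, 27.7, 30.1 and 32.1 CPM in *Nrg1GOF* libraries 1 to 4. It rose in every library, and here WT libraries 1 and 2 were the higher pair (log2 fold change 1.07, SE 0.16, adjusted p = 0.00101). The summed level of all 7 calcium- and sodium-activated channel genes was 8.80 ± 0.30 in WT and 8.91 ± 0.34 CPM per kb in *Nrg1GOF* (SD, n = 4 each), although 4 of them rose and 2 fell. These shares were 57.1% and 28.6%, against 15.9% higher and 12.8% lower over all tested genes.

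Others of this group rose from low levels. *Kcnt2*, which encodes a sodium-activated channel, was at 2.06, 2.45, 2.18 and 1.93 CPM in WT libraries 1 to 4 and 5.04, 4.05, 6.41 and 4.75 CPM in *Nrg1GOF* libraries 1 to 4 (log2 fold change 1.24, SE 0.18, adjusted p = 0.000863). *Kcnmb4*, a beta subunit of the large-conductance calcium-activated channel (BK), was at 3.97, 2.62, 2.63 and 3.4 CPM in WT libraries 1 to 4 and 5.76, 6.48, 5.94 and 5.38 CPM in *Nrg1GOF* libraries 1 to 4 (log2 fold change 0.90, SE 0.17, adjusted p = 0.00322). The groups did not overlap in either gene. *Kcnmb1*, the beta subunit known from smooth muscle, went from 2.44 ± 0.615 to 3.95 ± 0.639 CPM (SD, n = 4 each; log2 fold change 0.70, SE 0.22, adjusted p = 0.0377). Its call was lost without *Nrg1GOF* library 2, 3 or 4 or WT library 3 or 4 (log2 fold change 0.56 to 0.75, adjusted p = 0.0613 to 0.095) and with the replicate number as a block (0.70, adjusted p = 0.0672). *Kcnma1*, the pore gene that both beta subunits serve, had 10 counts in too few libraries to be a member. *Kcnn4*, the last of the group, stood just inside the membership rule with 10 counts in 4 libraries and was not called (log2 fold change 0.57, SE 0.36, adjusted p = 0.283).

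**Figure D2:**
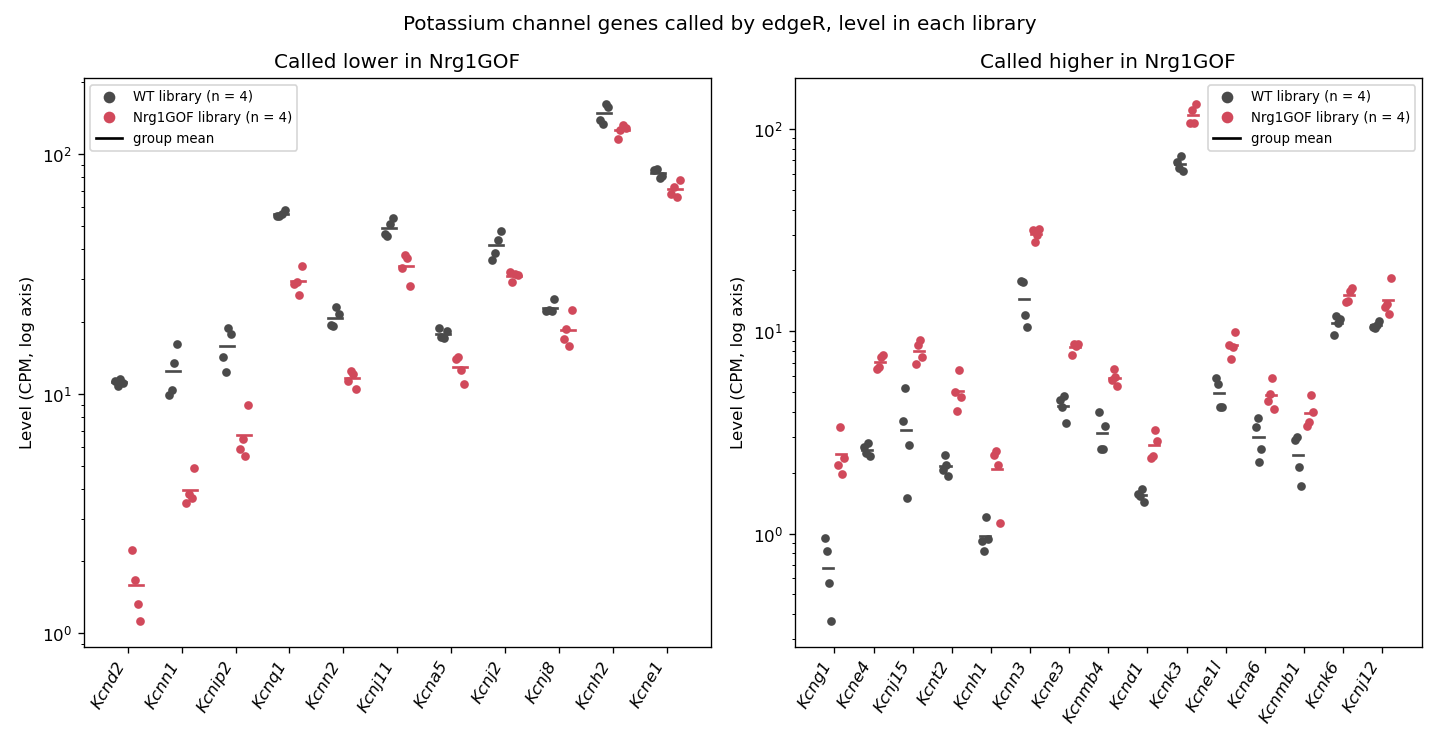
Level of 26 called potassium channel genes in every library (CPM on a log axis), genes along the x axis, a point per library and a bar at the group mean, WT in dark grey and *Nrg1GOF* in red. *Kcnd2*, *Kcnn1* and *Kcnip2* show the widest gaps below WT and *Kcng1* and *Kcne4* the widest above it, while *Kcnj8* and *Kcnh1* overlap.

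Levels of different genes were compared per length, as CPM per kb of merged exons. The 51 members summed to 228 ± 3.87 CPM per kb in WT and 221 ± 14.1 CPM per kb in *Nrg1GOF* (SD, n = 4 each), and *Nrg1GOF* values of 206 to 239 CPM per kb spanned the WT range. The 10 members with the highest WT level held 79.0% of this sum in WT and 75.3% in *Nrg1GOF*. In WT their levels in CPM per kb were 37.3 for *Kcng2*, 30.5 for *Kcnh2*, 25.9 for *Kcne1*, 19.5 for *Kcnj5*, 16.9 for *Kcnk3*, 13.8 for *Kcnq1*, 13.4 for *Kcnj11*, 8.97 for *Kcnj8*, 7.63 for *Kcnj2* and 6.22 for *Kcna5*. Of the neighbours in this order, *Kcnq1* and *Kcnj11* differed by less than the spread of the latter over WT libraries. In *Nrg1GOF*, *Kcnk3* had moved from rank 5 to rank 2 at 29.6 CPM per kb, and *Kcnd2* from rank 22 to rank 42. The summed level of the voltage-gated pore genes was 98.3 ± 3.65 in WT and 84.4 ± 8.62 CPM per kb in *Nrg1GOF*, with *Nrg1GOF* library 4 at 95.2 inside the WT range of 93.0 to 101, and that of the 2 Kcnip genes was 5.21 ± 0.94 and 2.49 ± 0.52 CPM per kb (SD, n = 4 each).

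**Figure D3:**
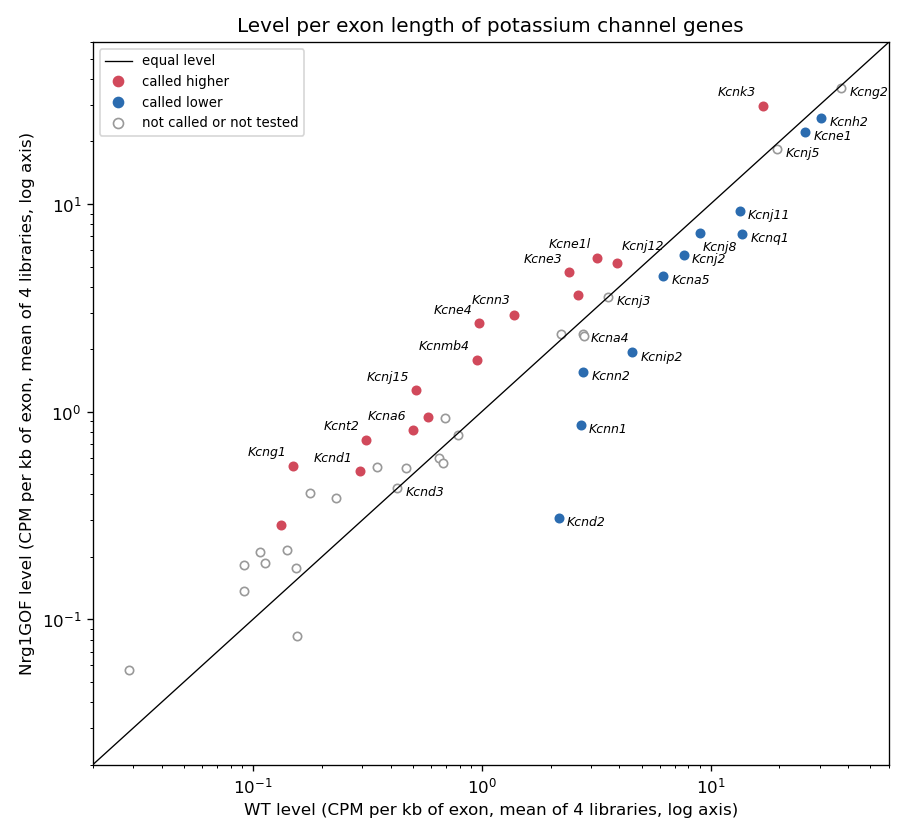
Level per exon length of 49 potassium channel genes in WT (x axis) and *Nrg1GOF* (y axis), both in CPM per kb of exon on log axes, means of 4 libraries, red for called higher, blue for called lower, open for not called or not tested and a line at equal level. Most of the genes above 5 CPM per kb in WT lie on or below the line, with *Kcnk3* above it at 29.6, and *Kcnd2* stands furthest below it.

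The ratio of counts of subunits of the same or a related channel does not depend on how libraries are scaled. Of 8 such ratios, 4 did not overlap between the groups. On the log2 scale *Kcnd3* to *Kcnd2* was higher in *Nrg1GOF* by 2.84 (7.17-fold), *Kcne1* to *Kcnq1* by 0.72 and *Kcnh2* to *Kcnq1* by 0.71, and *Kcnj2* to *Kcnj12* fell by 0.81. Each of these had an exact two-sided permutation p of 0.0286, the smallest that 4 against 4 libraries allow, and 0.0571 after Benjamini-Hochberg adjustment over the 8 ratios, so none passed 0.05 after adjustment. The other 4 overlapped, with *Kcnip2* to the Kv4 sum at 0.19 (exact permutation p = 0.486), *Kcnj3* to *Kcnj5* at 0.08 (exact permutation p = 0.457), *Kcnj11* to *Kcnj8* at -0.22 (exact permutation p = 0.314) and *Abcc8* to *Abcc9* at -0.61 (exact permutation p = 0.0857). The 4 ratios that did not overlap join a gene that fell with a gene that changed less or in the other direction. The latter was so for *Kcnj2* and *Kcnj12*, with modest log2 fold changes of -0.42 and 0.40.

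**Figure D4:**
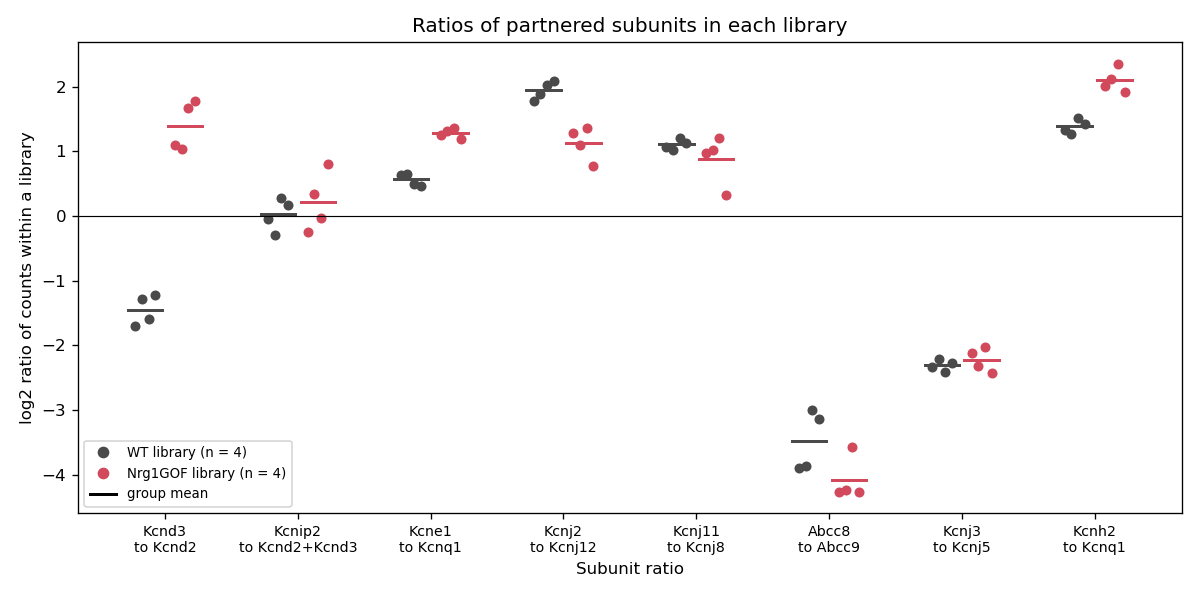
Log2 ratio of the counts of paired subunits (y axis) in each library for the 8 pairs along the x axis, WT in dark grey and *Nrg1GOF* in red, with a bar at the group mean. For *Kcnd3* to *Kcnd2* all WT libraries lie below 0 and all *Nrg1GOF* libraries above it.

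Of 17 genes without a Kcn symbol whose proteins bind or carry these channels, 12 were tested, of which 1 rose and 3 fell, with a median log2 fold change of -0.18. Among all tested genes 28.7% were called (15.9% higher and 12.8% lower), so the 4 calls were close to the share over all genes. *Dpp6*, an auxiliary subunit of Kv4 channels known mainly from neurons, rose from 1.17 ± 0.20 to 2.13 ± 0.21 CPM (log2 fold change 0.88, SE 0.20, adjusted p = 0.00986), so that it moved opposite to *Kcnd2* and *Kcnip2*. *Nedd4l*, a ubiquitin ligase of ion channels, fell from 111 ± 7.30 to 94.8 ± 2.46 CPM (log2 fold change -0.23, SE 0.06, adjusted p = 0.0152; SD, n = 4 each). *Abcc8* also fell. Not called were *Dpp10*, *Abcc9*, *Akap9*, *Dlg1*, *Cav3*, *Ank2*, *Amigo1* and *Lrrc55*, and *Lrrc26*, a gamma subunit of BK channels, had no counts in any library.

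Markers of other cell types also differed between the genotypes. Summed CPM of the 9 fibroblast and epicardial markers was 4018 to 5457 in WT and 7435 to 9455 in *Nrg1GOF*, and all 9 were higher. The 6 macrophage markers were at 41.5 to 49.9 CPM in WT and 74.5 to 89.0 CPM in *Nrg1GOF*, all 6 higher. Conduction system markers were at 458 to 555 and 760 to 773 CPM with 7 of 10 higher, and atrial markers at 994 to 1139 and 1629 to 1796 CPM with 3 of 6 higher. WT libraries 1 and 2 were above WT libraries 3 and 4 in the fibroblast sum (5457 and 5433 against 4018 and 4032 CPM). The conduction sum split the same way (555 and 541 against 468 and 458 CPM).

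Endothelial markers differed less, at 1191 to 1238 CPM in WT and 1292 to 1391 CPM in *Nrg1GOF*, with 4 of 8 higher. Mural cell markers were lower in sum, at 1373 to 1603 and 1087 to 1171 CPM, with 3 higher (*Pdgfrb*, *Cspg4* and *Tagln*) and 2 lower (*Rgs5* and *Acta2*) of 8 tested. *Acta2* made up most of this sum and went from 1084 ± 67.3 to 666 ± 51.2 CPM (SD, n = 4 each). The lower sum thus rested on *Acta2* and does not describe the mural markers as a set. Ventricular cardiomyocyte markers had 3 of 7 lower (*Myh7*, *Mybpc3* and *Tnnt2*), with *Myh6* at a log2 fold change of 0.51 (adjusted p = 0.105) and *Actc1* at 0.00 (adjusted p = 0.992). The markers of neurons and Schwann cells were near the floor, at 10.1 to 15.2 CPM in WT and 8.88 to 17.4 CPM in *Nrg1GOF* over 8 genes, with 1 of 4 tested higher (*Tubb3*). Red blood cell markers overlapped, with 12197 to 13037 CPM in WT libraries 1 and 2, 4416 to 5502 CPM in WT libraries 3 and 4 and 5432 to 8897 CPM in *Nrg1GOF*, and none was called by edgeR, DESeq2 or limma-voom, with 0 at an unadjusted p under 0.05. The called fibroblast, macrophage, conduction and atrial markers thus were higher. The 3 called markers of the ventricular cardiomyocyte list were lower, while its other markers were not called. The mural markers went both ways. A shared direction alone does not link a marker to a channel gene. The part of such markers in the changes of the channel genes was not tested.

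**Figure D5:**
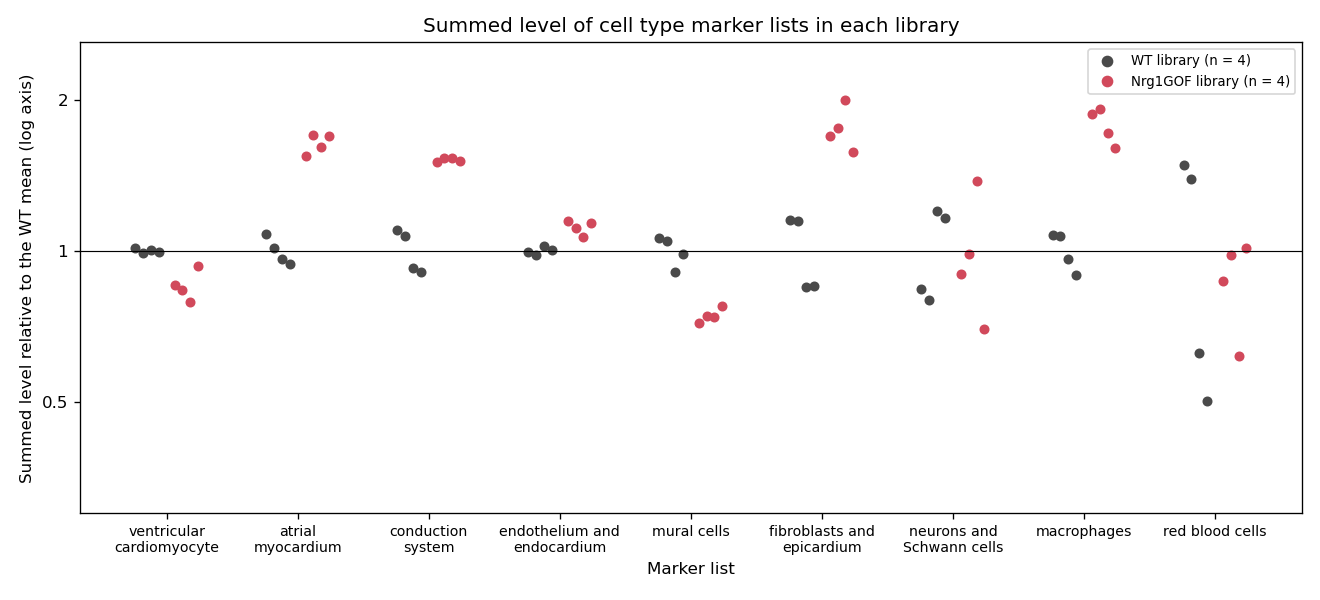
Summed CPM of the markers of each cell type (x axis) in every library, divided by the mean of the WT libraries (log axis), WT in dark grey and *Nrg1GOF* in red. Fibroblast, macrophage, conduction and atrial sums lie higher in all *Nrg1GOF* libraries, and ventricular cardiomyocyte and mural sums lower, the latter through *Acta2*. Red blood cell sums split WT libraries into pairs most widely, and fibroblast and conduction sums split them the same way.

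Of the 27 calls, 19 were kept in all 20 alternative fits, which changed the scaling, the test, the filter, the block or the libraries. They included *Kcnd2*, *Kcnn1*, *Kcnip2*, *Kcnq1*, *Kcnn2*, *Kcnj11*, *Kcna5* and *Kcnj2* among the lower members and *Kcng1*, *Kcne4*, *Kcnj15*, *Kcnt2*, *Kcnn3*, *Kcne3*, *Kcnmb4*, *Kcnk3*, *Kcne1l* and *Kcnk6* among the higher ones. In these fits the log2 fold change ran from -2.98 to -2.65 for *Kcnd2* and from 1.39 to 2.40 for *Kcng1*. Several members share exon sequence with a gene on the opposite strand (2355 bases of *Kcna6*, 1621 of *Kcnj3*, 693 and 355 of *Kcnmb4*, 333 of *Kcnj15*, 229 of *Kcnk3* and 121 of *Kcnq1*). The libraries were directional, but the strand setting of the counting is not given in the sources used here. Whether reads of such partners were kept apart from theirs is therefore not known.

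The 43 protein-coding Kcn genes below the membership rule were barely detected, since 34 of them reached 10 counts in no library and 9 had no counts at all. Those just outside, with 10 counts in 3 libraries, were *Kcna7*, *Kcnk13*, *Kcnmb2* and *Kcns1*. No member met the rule through the libraries of a single genotype, and 37 had 10 or more counts in all 8 libraries.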

How the data were processed

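Poly(A) RNA of E15.5 heart ventricles was sequenced as single reads of 60 bases from directional libraries made with 100 ng of RNA, with 4 libraries per genotype, grouped by the genotype and replicate in the sample titles. Gene-level expected counts from RSEM were deposited, in which a multiply mapping read is split by estimated abundance, so that 8.42% to 13.2% of values per library were not whole numbers. The submitters' processing notes name CASAVA 1.8, cutadapt and RSEM 1.3.1, the build is GRCm38 and the table's name gives Ensembl release 91. Symbols, biotypes, coordinates and merged exon lengths came from GENCODE M21, a later release on GRCm38, and 53360 of the 53465 genes had a symbol there. The strand setting is not given in the sources used here.

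Expected counts were rounded. After filterByExpr of edgeR 4.0.16 (R 4.3.3) and scaling by trimmed mean of M-values (TMM), genotypes were compared with the quasi-likelihood F-test, two-sided, genotype being the sole term. P values were adjusted by Benjamini-Hochberg over all 15580 tested genes, at a threshold of 0.05. The study likewise applied an edgeR generalised linear model at this false discovery rate. SE is the absolute log2 fold change over the square root of F. Subunit ratios used counts plus 0.5 and an exact permutation test (SciPy 1.17.1). The edgeR comparison was tried on simulated counts of 15580 genes, where 172 of 200 changed genes were recovered with 9 false calls. The simulated log2 changes were at least 1 in size, so smaller changes were not covered.

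The members, gene lists, motifs and ratios were chosen with earlier results of these data known. Genes given in every library were called members whose groups did not overlap (up to 12 in each direction), the 10 highest by WT level per exon length and subunits of known cardiac currents. A few genes are counted but not reported here by name. Alternatives were DESeq2 1.42.0, limma-voom (3.58.1), 3 other scalings, 2 other filters, the replicate number as a block, leaving out each library, the WT pairs summed or alone, thinning to equal depth and stricter thresholds. Totals were 8038641 to 26786039 counts. Reads carried no molecular identifiers, so floors cover counting error only.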

Additional observations from a re-analysis of the deposited data

Results flagged for a closer look

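Dixon's test was applied to the 4 libraries of each genotype, and a library stood out where more than 0.829 of its genotype's range lay between it and its closest neighbour. In 80 such sets of 4 values, 4 libraries stood out, where chance at 1 in 20 gives 4. *Kcnj5* was at 75.6 CPM in *Nrg1GOF* library 4 and at 88.8 to 90.1 CPM in the other *Nrg1GOF* libraries (gap over range 0.906). *Kcnj8* was at 24.7 CPM in WT library 4 and at 22.0 to 22.4 CPM in the other WT libraries (0.859). The log2 ratio of *Abcc8* to *Abcc9* was -3.57 in *Nrg1GOF* library 3 and -4.27 to -4.23 in the other *Nrg1GOF* libraries (0.956). The total of *Nrg1GOF* library 4 was 8038641 counts against 20578081 to 22547833 in the others of its group (0.864), and without this library 28 members were called in place of 27.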

How the results depend on the processing

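The alternatives gave 866 values, of which 781 had the reported direction and call or, for a count, lay within 1.5 times of it. Leaving out each library in turn, 22 to 28 members were called (13 to 18 higher, 8 to 10 lower), 3264 to 4243 of all genes and 3 to 5 partner genes. With the WT pairs summed, 19 members and 2522 of all genes were called (1555 higher, 967 lower), which also leaves fewer samples. Against WT libraries 1 and 2 alone 24 members were called and 1311 of all genes were lower. With WT libraries 3 and 4 as the sole controls 25 members were called. Thinning left 23 members and 2 partner genes. A threshold of 0.01 left 19 members and 2535 genes (1503 higher, 1032 lower). A call together with a log2 change of at least 1 left 9 members (6 higher, 3 lower), 724 genes (582 higher, 142 lower) and 0 partner genes. By construction, both stricter settings can only remove calls.

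Genes near no change reversed. Against WT libraries 1 and 2 alone *Kcnj3* was at -0.091, and against WT libraries 3 and 4 alone *Kcna4* was at 0.054, *Kcnd3* at -0.042 and *Kcnj5* at 0.022. Without single libraries *Kcnd3* ranged from -0.072 to 0.094, *Kcng2* from -0.18 to 0.048, *Kcnj3* from -0.050 to 0.13 and the log2 ratio of *Kcnip2* to the Kv4 sum from -0.0082 to 0.34. The cause was not tested. Library totals in place of TMM shifted the median log2 fold change of all genes from -0.012 to 0.033 and their calls to 2874 higher and 1521 lower, against 18 higher and 9 lower among the members.

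Equal replicate numbers did not pair the libraries, since the correlations of deviations from the group means were 0.129, 0.049, 0.199 and 0.067 for numbers 1 to 4, and *Nrg1GOF* library 1 correlated more with WT library 2 (0.187). With the replicate number as a block 27 members were called, 26 of them shared, with *Kcnmb1* lost and *Kcnc2* gained. Depth limits the scarcest members most in the shallowest library, *Nrg1GOF* library 4, with 0.375 CPM for 3 counts.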
